A study of Mus musculus with 12 samples.

Results

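This account concerns the genes that drive the cell cycle and copy DNA, in the striatum of mouse embryos with and without Foxp1. The members were taken from a list of 43 proliferation genes by matching each to the array feature named by its gene identifier. Of these, 42 were measured among the 25428 probe sets, and Ccnb1 was not analysed here. They were divided by textbook role into 20 genes of the G1/S transition and DNA replication, all measured, and 23 genes of G2 and mitosis, of which 22 were measured.

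The arrays came from 12 embryos at embryonic day 18.5, 6 wild type (WT) and 6 called cKO here, whose genotype the labels give as Nestin-Cre (Foxp1-/-). Both groups were C57BL/6J, each array held total RNA of striata from both hemispheres, and the design text counts 6 animals in each group. Nestin-Cre drives recombination in neural progenitors and the cells born from them, so neurons and glia can both carry the deletion. The labels do not say whether the WT embryos carried Cre or floxed alleles, and they do not give sex.

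A dividing cell passes through G1, S phase, G2 and mitosis. Cyclins bind cyclin-dependent kinases (Cdks) and switch them on in turn: the D and E cyclins carry the cell into S phase, and the A and B cyclins with Cdk1 carry it into mitosis. Before S phase the Mcm helicase is loaded onto replication origins, and in mitosis the spindle assembly checkpoint holds the chromosomes until each is attached. In the embryonic striatum dividing cells lie mainly in the ventricular and subventricular zones of the ganglionic eminence, while the projection neurons that make up most of the striatum no longer divide. Foxp1 is a forkhead transcription factor abundant in those neurons.

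Transcripts of many of these genes are known to be set by E2F factors, which bind near the start of G1/S genes, and by the DREAM and MuvB complexes, which bind a cell cycle homology region (CHR) near the start of G2/M genes, often beside CCAAT boxes. Promoters of 3 G2/M and 2 G1/S members are shown so that these letters can be seen beside the values. They are the members with the smallest p in each phase that the promoter table holds. Each stretch runs from 150 bases before the annotated start to 30 bases after it, 5′ to 3′ on the strand of the gene, from RefSeq on GRCm38.p6. Capitals mark E2F letters (TTTCCCGC, TTTGGCGC, TTTCGCGC or TTTGCCGC), CHR letters (TTTGAA or TTCGAA) and CCAAT, on either strand.
Bub1: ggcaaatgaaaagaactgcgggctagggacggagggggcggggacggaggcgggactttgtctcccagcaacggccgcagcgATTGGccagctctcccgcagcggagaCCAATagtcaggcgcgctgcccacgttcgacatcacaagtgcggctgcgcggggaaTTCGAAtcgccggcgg
Cenpe: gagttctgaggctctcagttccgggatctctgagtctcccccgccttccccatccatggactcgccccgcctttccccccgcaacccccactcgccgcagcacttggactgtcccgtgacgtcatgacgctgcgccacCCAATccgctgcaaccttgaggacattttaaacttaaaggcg
Hmgb2: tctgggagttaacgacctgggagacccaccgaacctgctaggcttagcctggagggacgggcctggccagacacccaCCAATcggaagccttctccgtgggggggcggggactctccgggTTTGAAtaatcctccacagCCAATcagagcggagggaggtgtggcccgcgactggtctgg
Rrm2: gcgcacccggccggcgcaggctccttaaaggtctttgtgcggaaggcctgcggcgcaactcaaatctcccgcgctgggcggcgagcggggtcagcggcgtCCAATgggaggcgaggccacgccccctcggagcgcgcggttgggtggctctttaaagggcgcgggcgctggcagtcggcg
Mcm6: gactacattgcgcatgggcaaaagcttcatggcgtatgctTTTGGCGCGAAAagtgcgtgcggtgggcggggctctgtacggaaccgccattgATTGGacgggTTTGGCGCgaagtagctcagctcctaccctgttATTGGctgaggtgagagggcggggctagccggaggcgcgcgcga

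These stretches lie at chr2:127831830-127832009 on the minus strand (Bub1), chr3:135212413-135212592 on the plus strand (Cenpe), chr8:57511693-57511872 on the plus strand (Hmgb2), chr12:24708104-24708283 on the plus strand (Rrm2) and chr1:128359676-128359855 on the minus strand (Mcm6). In Bub1 the CHR letters begin 15 bases into the transcribed part and the CCAAT letters begin 68 and 42 bases before the start. Hmgb2 has CHR letters 30 bases before the start, with CCAAT at 73 and 11 bases before it. Mcm6 has E2F letters beginning 110, 106 and 47 bases before the start, and the first pair overlap. Cenpe and Rrm2 show CCAAT and neither of the other motifs.

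Over the whole of each promoter in that table, 250 bases before the start and 50 after it, the E2F letters occurred in 7 of 15 G1/S genes and 1 of 20 G2/M genes. They occurred in 2.26% of all 32851 promoters. The CHR letters were found in 2 of 15 G1/S and 15 of 20 G2/M genes, against 19.2% of all promoters, and CCAAT in 9 of 15 and 17 of 20, against 37.4%. Promoters of 35 of the 43 listed genes were held, Ccnb1 among them. A match is a description of the letters and was not tested as a binding site.

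All expression values are log2 units from the robust multi-array average (RMA), changes are cKO minus WT with the standard error (SE) of limma, and an adjusted p is the Benjamini-Hochberg value across the 25428 probe sets, called below 0.05. The median probe set on the arrays read 5.71 and the lowest value was 5.21, so members close to these levels were measured near the lower end of the scale. Correlations between arrays ran from 0.992 to 0.998. Foxp1 itself read 10.89 to 11.39 in WT arrays against 10.14 to 10.36 in cKO arrays, a change of -0.91 ± 0.07 (SE, limma adjusted p = 0.000170). Where the probes lie relative to the deleted part is not given in the sources used here.

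Of the 42 measured members, 1 rose past the threshold in cKO, the mitotic kinase gene Aurkb, and 0 fell. Over all probe sets 0.299% rose and 0.429% fell past it. Unadjusted p values below 0.05 in limma were found for 12 members that were higher and 0 that were lower, where 5.06% of all probe sets were higher and 5.67% lower. Of the members 37 lay above the median probe set. Among the 12714 probe sets above the median level 940 were higher at that p, beside 1287 of all 25428. A positive change was found in 39 of 42 members, against 48.8% of all probe sets and 49.6% of those above the median level. The members share the array and move together, so these counts are not counts of independent genes. The members were also chosen with earlier results of these data known, so the counts are a description and not a test. By phase, 7 of 20 G1/S genes and 5 of 22 G2/M genes were higher at that unadjusted p. The median change was 0.11 over the 22 G2/M genes, all of them positive, and 0.07 over the 20 G1/S genes, of which 17 were positive, beside a median of -0.00077 over all probe sets. The list means of the groups overlapped, at 6.64 to 6.88 in WT and 6.71 to 6.94 in cKO for G2/M genes. For any difference in bulk tissue, more dividing cells in the sample and more RNA per dividing cell cannot be told apart.

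**Figure D1:**
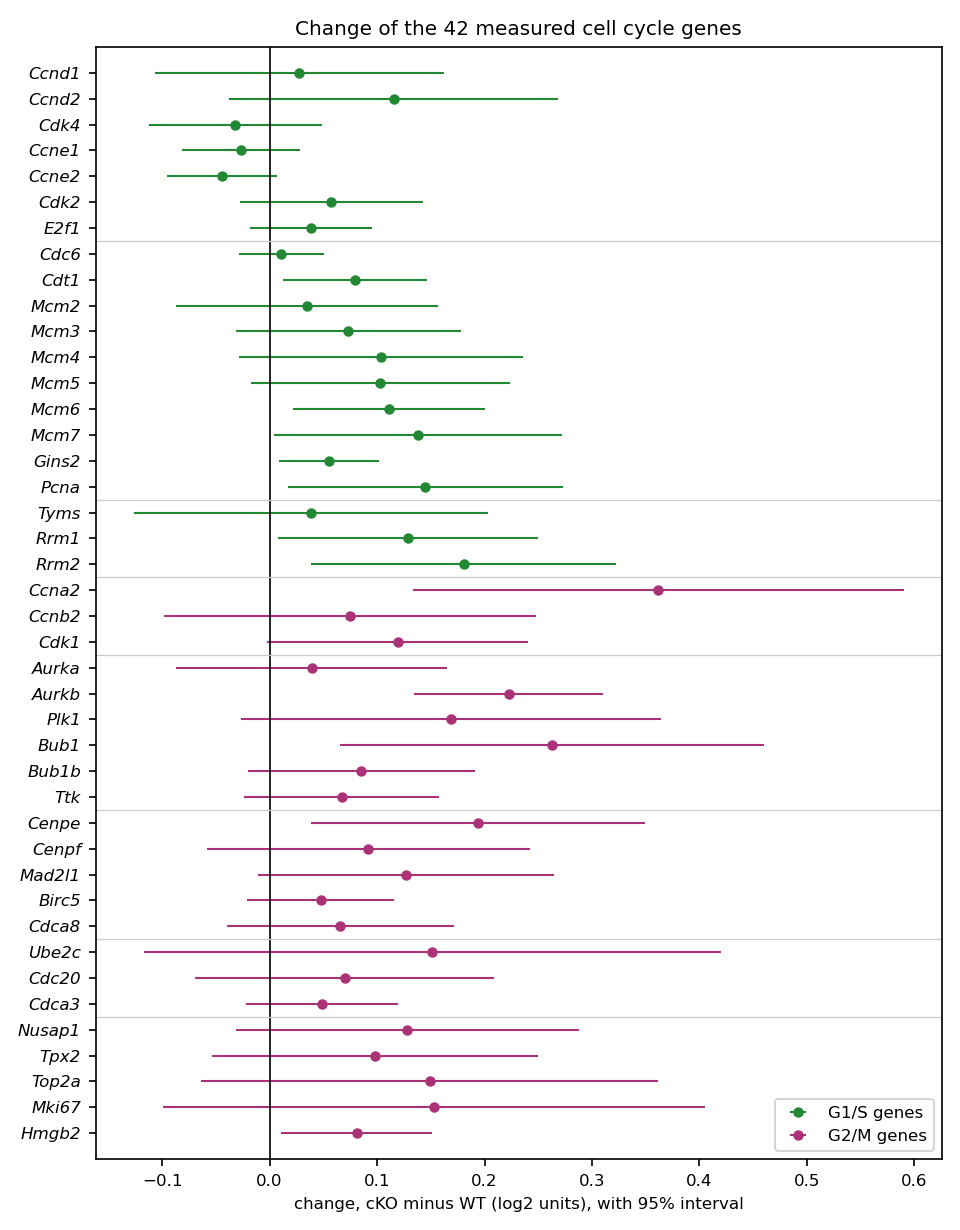
Change of each of the 42 measured members (dot, cKO minus WT in log2 units) with the 95% interval of limma (bar), in green for G1/S and purple for G2/M genes; grey lines part the functional groups. The changes run from -0.04 (Ccne2) to 0.36 (Ccna2), and the interval of Aurkb spans 0.13 to 0.31.

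The D cyclins receive growth signals and activate Cdk4. Ccnd2, the D cyclin of many neural progenitors, read 11.30 to 11.70 in WT, with a median of 11.48, and 11.44 to 11.75 in cKO, with a median of 11.62. The groups overlapped widely, and the change was 0.12 ± 0.07 (limma adjusted p = 0.603, 95% interval -0.04 to 0.27). Ccnd1 read 6.74 to 6.99 in WT (median 6.78) and 6.75 to 7.01 in cKO (median 6.79). Its value of 0.03 ± 0.06 (limma adjusted p = 0.917) was small beside the spread of either group, and it turned to -0.0046 and -0.0052 without cKO replicate 1 or 2, which held the highest cKO readings.

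Their partner Cdk4 had a value of -0.03, with an interval of -0.11 to 0.05. The E cyclins, which fire the entry into S phase with Cdk2, were the other members with negative values: -0.03 for Ccne1 and -0.04 for Ccne2. Both E cyclins read 6.01 or less on every array, close to the lower end of the scale. Cdk2 had a value of 0.06 and E2f1, the transcription factor that turns on S-phase genes, one of 0.04. In this group of 7 regulators 4 had positive values, 0 passed the threshold in limma and 0 had an unadjusted p under 0.05.

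The genes of replication licensing and of the fork all had positive values, 10 of 10, with a median of 0.09. In limma 0 passed after adjustment and 5 were higher at an unadjusted p under 0.05, as were 5.06% of all probe sets. Pcna, the clamp that holds the polymerase on DNA, ran from 10.80 to 11.15 in WT (median 11.02) and from 11.04 to 11.26 in cKO (median 11.17). Every cKO array lay above the WT mean and 3 lay above every WT array. Its change was 0.14 ± 0.06 (limma adjusted p = 0.381).

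Among the 6 genes of the Mcm helicase ring, which opens the double strand, Mcm6 had the smallest p. Its WT arrays ran from 6.74 to 6.93 (median 6.87) and its cKO arrays from 6.83 to 7.06 (median 6.97), with 4 cKO arrays above every WT array. The change was 0.11 ± 0.04 (limma adjusted p = 0.329). Mcm2 read 6.46 to 6.71 in WT (median 6.67) and 6.48 to 6.71 in cKO (median 6.70), a change of 0.03 ± 0.06 (limma adjusted p = 0.877). The values of the other ring genes were 0.07 for Mcm3, 0.10 for Mcm4 and Mcm5, and 0.14 for Mcm7. Subunits of 1 ring thus spanned a range of changes whose intervals overlapped.

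Cdt1, which loads the ring onto origins, ran from 5.78 to 5.90 in WT (median 5.87) and from 5.85 to 6.03 in cKO (median 5.95), with a change of 0.08 ± 0.03 (limma adjusted p = 0.360). Its partner in loading, Cdc6, had a value of 0.01 with an interval of -0.03 to 0.05. Gins2, a subunit of the active helicase, ran from 5.53 to 5.62 in WT (median 5.56) and from 5.55 to 5.66 in cKO (median 5.65), a change of 0.06 ± 0.02 (limma adjusted p = 0.361). For both Cdt1 and Gins2, 4 cKO arrays lay above every WT array, and the lowest cKO array lay within the WT range. Cdc6 and Gins2 lay below the median probe set.

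Ribonucleotide reductase makes the building blocks of DNA from a large subunit, Rrm1, and a small subunit, Rrm2, which is made mainly in S phase. Rrm2 ran from 7.32 to 7.56 in WT (median 7.51) and from 7.54 to 7.93 in cKO (median 7.62), and 5 cKO arrays lay above every WT array. The change was 0.18 ± 0.06 (limma adjusted p = 0.316), with an unadjusted p of 0.00433 by exact two-sided permutation of the arrays between groups. That permutation p is among the smallest of those computed for all 42 members. Rrm1 ran from 8.39 to 8.74 in WT (median 8.51) and from 8.55 to 8.73 in cKO (median 8.68), a change of 0.13 ± 0.06 (limma adjusted p = 0.419). WT replicate 2 held its highest value. Tyms, which makes thymidylate, had a value of 0.04 with an interval of -0.13 to 0.20.

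The mitotic cyclins begin with Ccna2, which acts from S phase to early mitosis. It ran from 8.39 to 8.74 in WT (median 8.53) and from 8.65 to 9.14 in cKO (median 8.95). The cKO arrays fell apart, with replicates 2, 3 and 5 between 9.12 and 9.14 and replicates 1, 4 and 6 between 8.65 and 8.78. Replicates 2, 3 and 5 were also the cKO arrays with a low level of Y-linked genes, described further on. The change of 0.36 ± 0.10, or 1.28-fold, was the largest of the members and did not pass (limma adjusted p = 0.187, exact permutation p = 0.0130 unadjusted). Ccnb2, a B cyclin, had a value of 0.07. Cdk1, the kinase that both cyclins activate, ran from 6.05 to 6.22 in WT (median 6.13) and from 6.10 to 6.44 in cKO (median 6.23), with 4 cKO arrays above every WT array and a change of 0.12 ± 0.06 (limma adjusted p = 0.472).

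**Figure D2:**
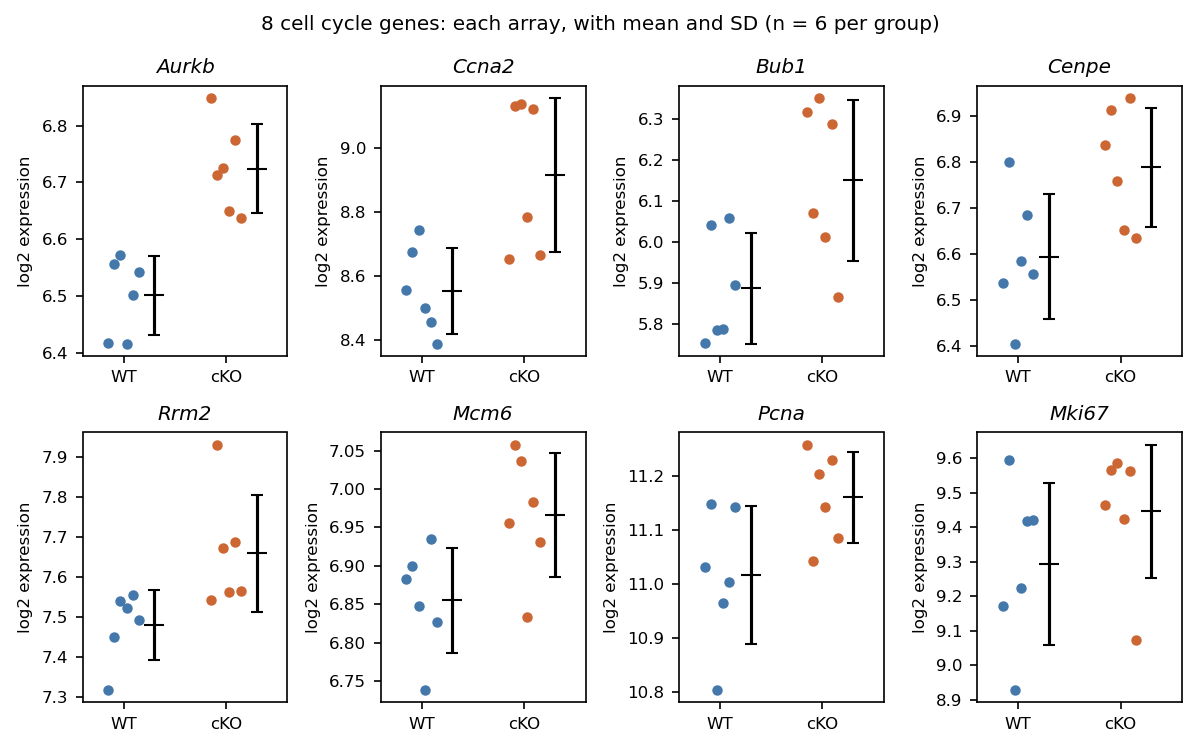
Log2 expression of 8 members in each array (dots, blue WT and orange cKO, spread sideways for view only) with the group mean and SD (black, n = 6 per group); each panel has its own axis, which does not start at 0. Only in the Aurkb panel do the groups not overlap, with WT up to 6.57 and cKO from 6.64.

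Of the 6 mitotic kinases 1 rose past the threshold, 0 fell, and 2 were higher at an unadjusted p under 0.05. The shares over all probe sets were 0.299% risen past the threshold and 5.06% higher at that unadjusted p. Aurkb is the catalytic subunit of the chromosomal passenger complex, which corrects faulty spindle attachments. It ran from 6.42 to 6.57 in WT (median 6.52) and from 6.64 to 6.85 in cKO (median 6.72). All 6 cKO arrays lay above every WT array, which was so for 0.562% of all probe sets and for no other member. The means were 6.50 ± 0.07 (SD, n = 6) and 6.72 ± 0.08 (SD, n = 6), and it rose by 0.22 ± 0.04, or 1.17-fold (limma adjusted p = 0.0303, exact permutation p = 0.00216 unadjusted, the smallest that the assignments of these arrays allow).

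The call of Aurkb lay near the threshold. It was lost without WT replicate 4 or 5 (limma adjusted p = 0.0664 and 0.0574), without cKO replicate 2, 3 or 5 (limma adjusted p = 0.0691, 0.0751 and 0.0841), and without WT replicates 3 and 6 (limma adjusted p = 0.0504). It was also lost with the level of Y-linked genes, described further on, as a covariate (limma adjusted p = 0.0521) and within the arrays of high or of low level (limma adjusted p = 0.612 and 0.260). The change itself stayed between 0.20 and 0.25 over all alternatives tried. The other proteins of its complex in these data were Birc5, with a value of 0.05, Cdca8, with 0.07, and Incenp, a gene outside the member list, with 0.03 (limma adjusted p = 0.637, 0.680 and 0.757). Birc5 lay below the median probe set. The related kinase Aurka, which acts at the spindle poles, had a value of 0.04 with an interval of -0.09 to 0.17.

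Bub1 and Bub1b encode kinases of the spindle assembly checkpoint, as does Ttk. Bub1 ran from 5.76 to 6.06 in WT (median 5.84) and from 5.87 to 6.35 in cKO (median 6.18), with 4 cKO arrays above every WT array. Its change was 0.26 ± 0.09 (limma adjusted p = 0.288). The other two had values of 0.09 (Bub1b) and 0.07 (Ttk). Plk1, a kinase of mitotic entry, ran from 6.44 to 6.92 in WT (median 6.76) and from 6.62 to 7.08 in cKO (median 6.90). That overlap left its change of 0.17 ± 0.09 below the threshold (limma adjusted p = 0.540).

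Kinetochore and checkpoint genes all had positive values, and 1 of 5 in this group, Cenpe, had an unadjusted p under 0.05 in limma, with 0 past the adjusted threshold. At that unadjusted p 5.06% of all probe sets were higher. Cenpe, a kinesin that carries chromosomes to the spindle equator, ran from 6.41 to 6.80 in WT (median 6.57) and from 6.63 to 6.94 in cKO (median 6.80). Every cKO array lay above the WT mean, and the change was 0.19 ± 0.07 (limma adjusted p = 0.330). Mad2l1, the checkpoint protein that blocks Cdc20, ran from 6.59 to 6.96 in WT (median 6.69) and from 6.73 to 6.95 in cKO (median 6.87), a change of 0.13 ± 0.06 (limma adjusted p = 0.513). No cKO array passed the highest WT array, replicate 2. Cenpf, another kinetochore protein, had a value of 0.09.

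The anaphase-promoting complex ends mitosis by marking cyclins for destruction. Its ubiquitin-conjugating enzyme Ube2c ran from 7.71 to 8.49 in WT (median 8.11) and from 8.01 to 8.42 in cKO (median 8.30). The WT SD of 0.29 was the widest of the members, and the change was 0.15 ± 0.12 (limma adjusted p = 0.721, 95% interval -0.12 to 0.42). Its activator Cdc20 had a value of 0.07 and Cdca3, a mitotic entry factor, one of 0.05.

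Mki67, whose protein is widely stained to mark dividing cells, and Top2a did not pass. Mki67 ran from 8.93 to 9.59 in WT (median 9.32) and from 9.07 to 9.59 in cKO (median 9.51), a change of 0.15 ± 0.12 (limma adjusted p = 0.690, 95% interval -0.10 to 0.41). Top2a, the enzyme that untangles sister chromosomes, ran from 8.44 to 8.98 in WT (median 8.70) and from 8.65 to 8.98 in cKO (median 8.91), a change of 0.15 ± 0.10 (limma adjusted p = 0.635). For both, WT alone spanned over 0.5 log2 units, and no cKO array exceeded the highest WT array. These intervals include both no difference and a change of 0.3. Without WT replicate 3, the lowest WT array for both, the change was 0.08 for Mki67 and 0.10 for Top2a, and it was 0.07 for Ube2c and 0.11 for Plk1. That of Mcm2 ran from 0.0054 without WT replicate 1 to 0.07 without cKO replicate 6.

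The spindle proteins Nusap1 and Tpx2 had values of 0.13 and 0.10. Hmgb2, a chromatin protein abundant in proliferating cells, ran from 5.55 to 5.74 in WT (median 5.65) and from 5.68 to 5.84 in cKO (median 5.73), a change of 0.08 ± 0.03 (limma adjusted p = 0.370). Its probe set lay below the median probe set. Over the members, changes were larger where the probe set read higher: the median change was 0.05 for the 10 members that averaged under 6, 0.10 for the 23 between 6 and 8, and 0.14 for the 9 from 8 up.

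Most members tended to a similar order over the arrays within each group, with exceptions. In WT, replicate 2 held the highest value of 23 of the 42 members, and replicates 1, 3 and 4 held the lowest of 11, 14 and 11. WT replicate 3 nevertheless held the highest WT value of 2 members, Aurkb (6.57) and Ccna2 (8.74). In cKO, replicate 6 held the lowest value of 21 members and replicate 4 of 12, while replicate 5 held the lowest of 0. Against the median of the 12 arrays, 35 members were above it in WT replicate 2, but 4, 4 and 2 in WT replicates 1, 3 and 4. In cKO the number was 36, 31, 36 and 38 in replicates 1, 2, 3 and 5, and 14 and 10 in replicates 4 and 6.

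The G2/M mean was thus high in cKO replicates 1, 2, 3 and 5, at 6.92 to 6.94, and these 4 lay above every WT array. It was 6.79 and 6.71 in cKO replicates 4 and 6, inside the WT range of 6.64 to 6.88. The G1/S mean read 7.19 to 7.34 in WT, against 7.26 to 7.35 in cKO, with 3 cKO arrays above every WT array. With WT replicates 3 and 6 left out together, the medians were 0.10 for G2/M and 0.07 for G1/S, with all 22 and 17 of 20 positive.

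**Figure D3:**
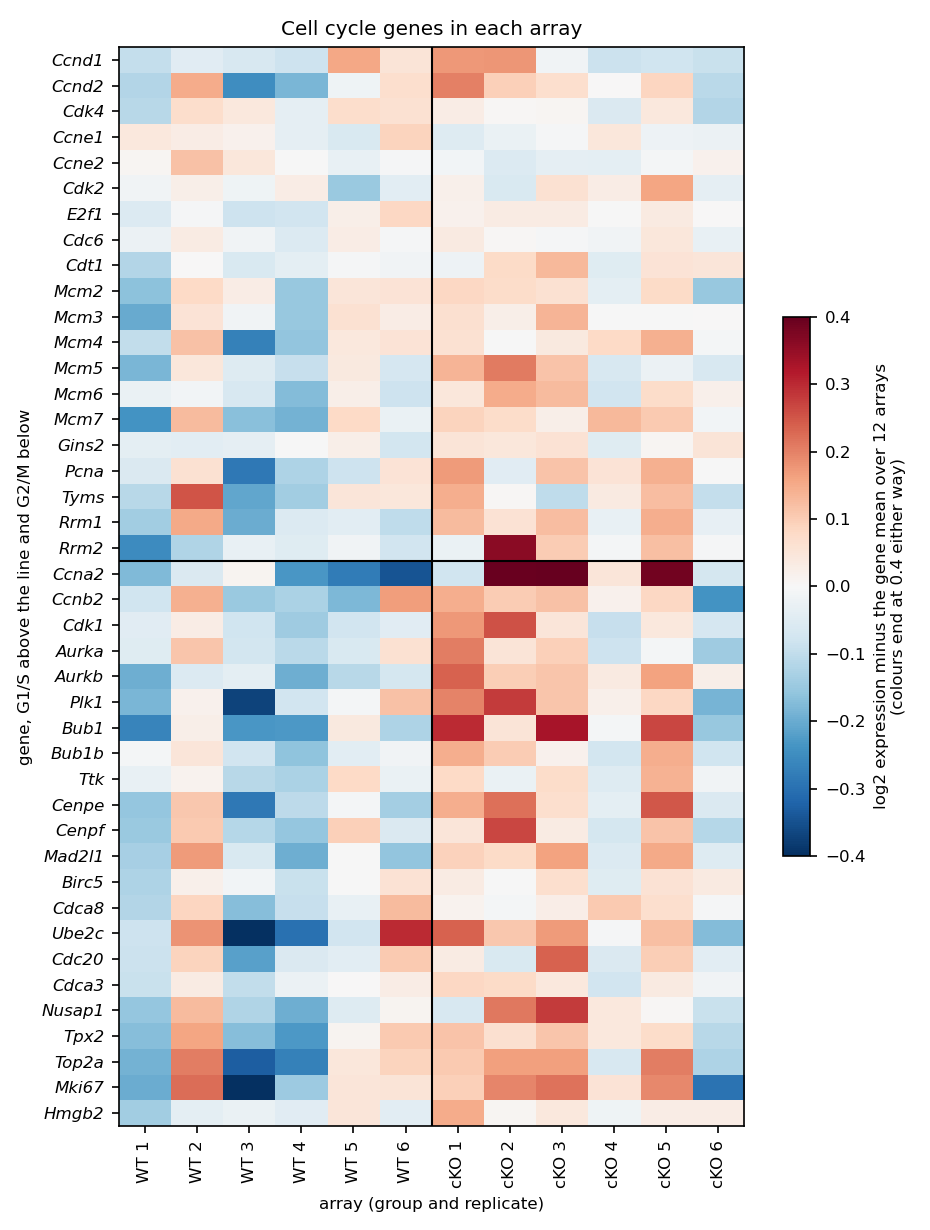
Each row is a member and each column an array; the colour is log2 expression minus the mean of that gene over the 12 arrays, red above and blue below, with colours ending at 0.4 either way. The columns of WT replicates 1, 3 and 4 are mostly blue, and those of cKO replicates 1, 2, 3 and 5 mostly red, with 36, 31, 36 and 38 of 42 members above the median of the arrays.

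The level of Y-linked genes split the arrays into 7 with a mean of 7.32 to 7.71 over the 3 measured genes (4 WT, 3 cKO) and 5 with a mean of 5.34 to 5.40 (WT replicates 3 and 4, cKO replicates 2, 3 and 5). Such genes are transcribed from the chromosome that only males carry. The values within each set of arrays were added after the data were seen. Among the arrays of low Y-linked level, the G2/M mean was 6.64 to 6.65 in WT and 6.92 to 6.94 in cKO, and all 22 genes had positive changes, with a median of 0.25. In those of high level the groups overlapped, at 6.67 to 6.88 in WT and 6.71 to 6.92 in cKO, with 12 of 22 positive and a median of 0.0020. For G1/S genes the medians were 0.14 and 0.02, with 18 and 12 of 20 positive. Of all 25428 probe sets 12542 were positive at low level and 12299 at high level.

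Mki67 had a change of 0.49 ± 0.09 at low and -0.08 ± 0.13 at high Y-linked level, Top2a one of 0.48 ± 0.03 and -0.07 ± 0.10, and Ube2c one of 0.52 ± 0.06 and -0.06 ± 0.13. Top2a passed within the 5 arrays of low level (limma adjusted p = 0.0399), as 1 of 24 probe sets called there out of 25428. Ccna2, whose cKO arrays parted along this level, had 0.51 ± 0.07 at low and 0.18 ± 0.07 at high level. Aurkb, by contrast, had 0.24 ± 0.05 and 0.21 ± 0.06. The difference itself was tested as an interaction of genotype and Y-linked level in limma over all probe sets, and 0 of 42 members passed after adjustment, as did 0% of all probe sets. The smallest adjusted p of a member was that of Top2a (limma adjusted p = 0.670). At an unadjusted p under 0.05, the change of 15 members was larger at low level and that of 0 smaller, where 2.95% of all probe sets were larger. Over all 25428 probe sets, 751 were larger and 732 smaller. In direction, 39 of 42 members had the larger change at low level, against 50.8% of all probe sets. The members move together, so these counts are not counts of independent genes. The 2 WT arrays in the low set had the lowest G2/M means of all 12 arrays (6.64 and 6.65), so this difference rests on few embryos.

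**Figure D4:**
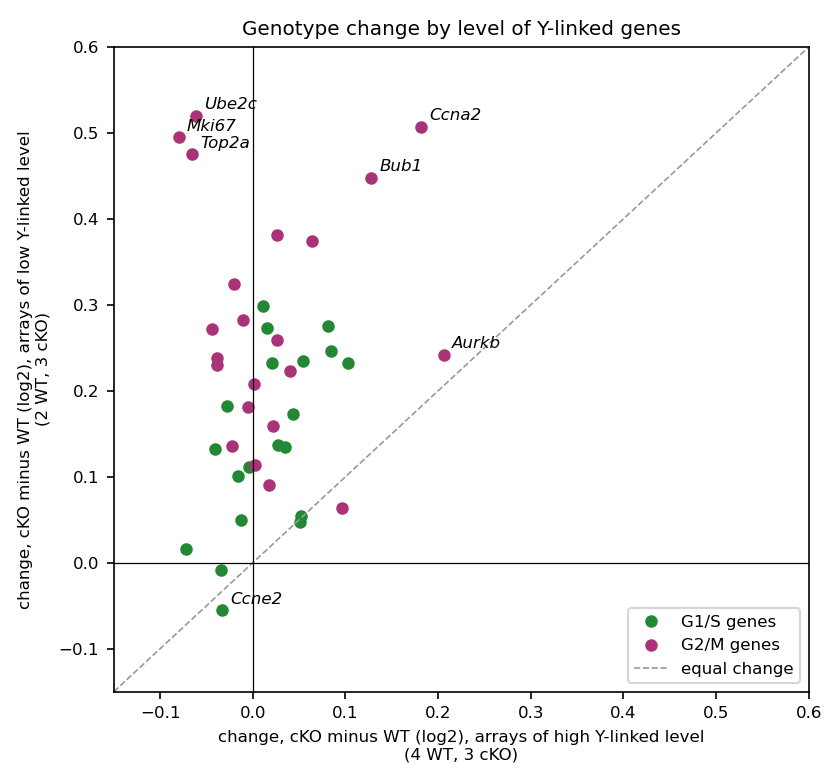
Each dot is a member, with its change (cKO minus WT, log2 units) in the 7 arrays of high Y-linked level on the horizontal axis and in the 5 of low level on the vertical axis; the dashed line marks equal changes. Of the 42 members 39 lie above the line, Ube2c, Mki67 and Top2a far above it, and Aurkb at 0.21 and 0.24 lies near it.

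Other genes of the cell cycle were read from lists of 118 further genes, 117 of them measured. In limma 0 passed the adjusted threshold. An unadjusted p below 0.05 was reached by 27 with higher levels in cKO and by 2 with lower levels, and 92 had positive changes. Over all probe sets 5.06% were higher and 5.67% lower at that p, and 48.8% were positive. Of the 117 genes 106 lay above the median probe set, and 940 of the 12714 probe sets above the median level were higher at that p. These genes share the arrays too, so the counts are not counts of independent genes. They were also chosen with earlier results of these data known. The median change of the 117 genes was 0.04. Gins4, a subunit of the active helicase, passed without WT replicate 6 (limma adjusted p = 0.0210) and without WT replicates 3 and 6 (limma adjusted p = 0.0433), at changes of 0.16 in both.

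The lists were not tested against each other, and each count below stands beside 5.06% higher and 5.67% lower over all probe sets. Condensin and cytokinesis genes had a median of 0.13, and an unadjusted p below 0.05 in 7 of 12 that were higher and in 1 that was lower. Their smallest p values belonged to the citron kinase gene Cit, with a negative value of -0.16 ± 0.04 (limma adjusted p = 0.167), and the condensin gene Ncapg, at 0.15 ± 0.05 (limma adjusted p = 0.257). Mitotic kinesins had a median of 0.07 and 4 of 12 higher. Kif11, which pushes the spindle poles apart, had a value of 0.30 ± 0.09 (limma adjusted p = 0.200), and Kif15 one of 0.14 ± 0.05 (limma adjusted p = 0.361). Other kinetochore and passenger genes had a median of 0.05 with 6 of 17 higher, led by Spc25 at 0.14 ± 0.04 (limma adjusted p = 0.213) and Knl1 at 0.24 ± 0.09 (limma adjusted p = 0.300).

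Lists of the earlier phases had medians between 0.02 and 0.05. The polymerase and fork list had a median of 0.02 with 2 of 25 higher, the primase gene Prim1 at 0.17 ± 0.05 (limma adjusted p = 0.207) and the single-strand binding gene Rpa1 at 0.12 ± 0.04 (limma adjusted p = 0.262). Origin genes had a median of 0.04, with 3 of 15 higher and 1 lower. Mcm8 stood at 0.08 ± 0.02 (limma adjusted p = 0.113) and Gins4 at 0.13 ± 0.03 (limma adjusted p = 0.115). In the list of Rb, E2F and DREAM factors 3 of 18 were higher, with a median of 0.05, and the retinoblastoma gene Rb1, a brake on S-phase entry, had a value of 0.14 ± 0.04 (limma adjusted p = 0.218) and the repressor gene E2f8 one of 0.11 ± 0.04 (limma adjusted p = 0.262).

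The inhibitors of Cdks, which hold cells in G1, all had positive values too, 7 of 7, with a median of 0.02 and 1 higher at an unadjusted p under 0.05. Cdkn2c had a value of 0.07 ± 0.03 (limma adjusted p = 0.416) and Cdkn1a one of 0.13 ± 0.09 (limma adjusted p = 0.648). Other cyclins and Cdk activators had a median of 0.04 with 1 of 11 higher, the phosphatase gene Cdc25a at 0.09 ± 0.04 (limma adjusted p = 0.367). Wee1, a kinase that restrains Cdk1, had a value of 0.12 ± 0.06 (limma adjusted p = 0.557).

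Markers of progenitors and neuroblasts were read on the same arrays. The values do not show which of these markers lay in dividing cells. Of 10 radial glia genes 8 had positive values and 4 were higher at an unadjusted p under 0.05, with a median of 0.03 and list means of 8.31 to 8.46 in WT and 8.41 to 8.53 in cKO. Of 9 genes of ganglionic eminence progenitors and neuroblasts all 9 had positive values and 5 were higher, with a median of 0.11 and list means of 9.66 to 9.90 in WT and 9.81 to 9.99 in cKO. In limma 0 genes of either list passed the adjusted threshold, and 5.06% of all probe sets were higher at an unadjusted p under 0.05. Sox2, a stem cell factor, had the smallest p of the first list, at 0.37 ± 0.09 (limma adjusted p = 0.111), and Dcx, of migrating neuroblasts, that of the second, at 0.08 ± 0.02 (limma adjusted p = 0.128). Both list means were low in WT replicates 1, 3 and 4, as the member means were. Within cKO they were higher in replicates 1, 2, 3 and 5 than in 4 and 6. In the radial glia list 2 cKO arrays lay above every WT array, and in the eminence list 4 did. These lists too were chosen with earlier results of these data known. The part of these lists in the members' values was not tested.

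Cortical neuron markers followed the order of the members only in part. Of 7 genes, among them Bcl11b, which striatal neurons also express, 6 had positive values and 2 were higher at an unadjusted p under 0.05. The share higher over all probe sets was 5.06%. The list was highest in cKO replicate 6, at 7.34, the array that held the lowest cKO value of 21 of the 42 members, and lowest in cKO replicate 3, at 6.67, where the G2/M mean was highest. In cKO replicates 2 and 5 both were high, at 7.16 and 7.15 for the list and 6.92 and 6.93 for the G2/M mean. Within WT the list was lowest in replicates 1 and 3, at 6.71 in each, where the G2/M mean was 6.67 and 6.64. It read 6.89 in WT replicate 4, where the G2/M mean was 6.65. The 4 genes of cortical intermediate progenitors averaged 5.86 to 6.11 in WT arrays, against 5.98 to 6.12 in cKO arrays, near the lower end of the scale, with 0 at an unadjusted p under 0.05. Striatal projection neuron markers, which define the labelled tissue, were well measured, with list means of 8.44 to 8.77 in WT and 8.35 to 8.55 in cKO. Their values went both ways, 4 positive and 4 negative, from -0.59 to 0.38 with a median of -0.06. Of these 8 genes 1 fell past the threshold, the phosphodiesterase gene Pde10a, and 0 rose, while 2 were higher and 3 lower with an unadjusted p below 0.05 in limma. Among all probe sets 0.429% fell past the threshold, and 5.06% were higher and 5.67% lower at that unadjusted p. Penk, the enkephalin precursor gene, lay just outside the threshold at 0.38 ± 0.08 (limma adjusted p = 0.0501).

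**Figure D5:**
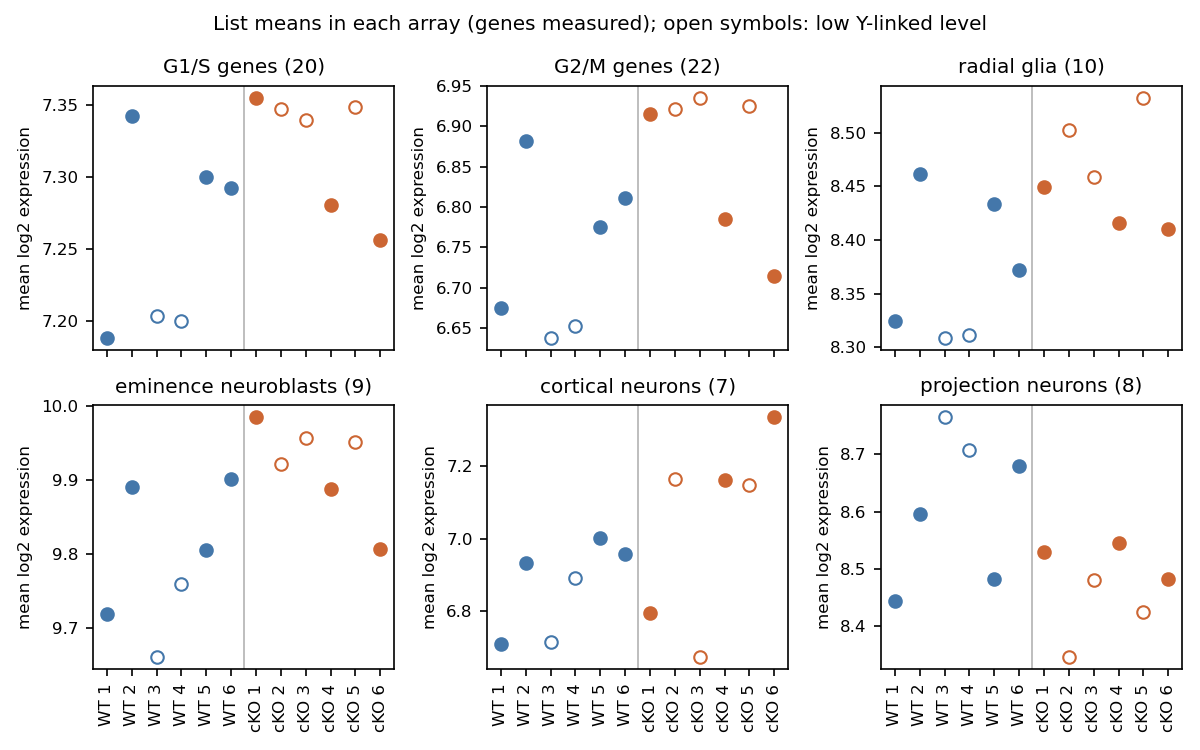
Mean log2 expression of 6 gene lists in each array (blue WT, orange cKO; open symbols are arrays of low Y-linked level; the number of measured genes is given above each panel, and the axes do not start at 0). The G1/S, G2/M, radial glia and eminence panels are low in WT replicates 1, 3 and 4. The cortical panel is low in WT replicates 1 and 3 too, and peaks at 7.34 in cKO replicate 6.

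Markers of other cells of the region were read too. Medians were 0.02 for 5 oligodendrocyte precursor genes (list means 6.69 to 7.03 in WT and 6.79 to 6.89 in cKO) and 0.07 for 5 astrocyte genes (6.83 to 7.01 and 6.96 to 7.04). They were 0.08 for 5 genes of endothelial cells and pericytes (6.79 to 6.92 and 6.85 to 6.96), -0.0054 for 5 microglial genes (5.83 to 5.90 and 5.82 to 5.89) and 0.0022 for 4 erythroid genes (5.50 to 5.59 and 5.47 to 5.64). In limma 0 genes of these lists passed the adjusted threshold, while 3 had an unadjusted p below 0.05, 1 higher and 2 lower. Among all probe sets 5.06% were higher and 5.67% lower at that p. Among 5 genes of meninges and choroid plexus, Ttr, the transthyretin of choroid plexus, read 9.96 in cKO replicate 1 and 5.39 to 5.57 in the other 11 arrays. Without that array the G2/M median was 0.09, the G1/S median 0.06, and Aurkb had a change of 0.20 (limma adjusted p = 0.0486).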

How the data were processed

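The authors deposited log2 values of each probe set on each array. RMA is the only tool listed in the submitters' processing notes, with no version given, and the log2 scale was read from the range of the values. The scanner, the probe definition and the software are not given in the sources used here. RMA corrects background, gives all arrays a shared distribution and summarises probes, so a change common to all genes cannot be seen. A symbol was available for 24674 of 25428 probe sets from the platform annotation, with 0 changed when set against the RefSeq gene table.

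Changes were fitted over all probe sets and 12 arrays, without covariates, by limma 3.58.1 (two-sided moderated test from lmFit and eBayes, under R 4.3.3), with Benjamini-Hochberg adjustment and a threshold of 0.05. On simulated arrays of this size (10 simulations, 200 changed probe sets) it recovered 43.7% of changes of 0.1, 77.5% of 0.25 and 97.3% of 0.5 log2 units, with 5.3% false calls. These rates are for probe sets drawn at random with independent noise, and the median residual SD over all probe sets was 0.0469. The members spread more, with median SDs of 0.11 in WT and 0.09 in cKO, and move together. The rates therefore do not hold for the members. The number of arrays limits the precision. The labels call the samples of each group biological replicates.

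The members and gene lists were chosen with earlier results of these data known. Values in full are given for members past the threshold, the 5 with the smallest p in each phase, the members with the largest change and the highest mean level in each functional group, and Mki67, Top2a, Cdk1, Pcna, Mcm2, Ccnd1 and Ccnd2. Of each other cell cycle list, the 2 genes with the smallest p are named; Incenp, Prc1 and the cell type markers named with values were picked after their values were seen. Exact permutation tests were computed for all 42 members, and the p values printed in the results, of Aurkb, Rrm2 and Ccna2, are the smallest of them. For the 7 usual markers just named, the unadjusted exact permutation p ran from 0.0411 (Pcna) to 0.688 (Ccnd1). The alternatives were 21 planned settings, a stricter adjusted p of 0.01, a G2/M list without Ccna2, Mki67, Top2a and Hmgb2, and 2 settings added after the data were seen (within arrays of high and of low Y-linked level). Motif letters were chosen after the expression values were seen.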

Additional observations from a re-analysis of the deposited data

Results flagged for a closer look

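In 84 groups of 6 arrays (42 members, WT and cKO), 4 held a value set apart from the others by a gap that was large for the range of the group; chance alone gives about 1 such group in 20. In cKO replicate 6 the lowest value stood apart for Mki67, at 9.07 with the next array at 9.42, for Ccnb2, at 6.45 with the next at 6.71, and for Tpx2, at 7.62 with the next at 7.77. All 3 are G2/M genes. In cKO replicate 1 the highest value of Hmgb2 stood apart, at 5.84 with the next at 5.74. Without cKO replicate 6 the G2/M median was 0.14 and that of G1/S 0.07.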

How the results depend on the processing

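The median changes stayed positive in every setting, 0.06 to 0.09 for G1/S and 0.08 to 0.14 for G2/M when 1 array was left out, and moved with the Y-linked level: 0.14 (G1/S) and 0.25 (G2/M) within arrays of low level and 0.0020 (G2/M) within those of high level. The single member call, Aurkb, became 0 of all members and 0 of G2/M members with the Y-linked covariate, with the replicate number as a block, without WT replicates 3 and 6, at an adjusted p below 0.01 and within arrays of high level; leaving out 1 array gave 0 to 1. Within arrays of low level the 1 call was Top2a, and Aurkb did not pass (limma adjusted p = 0.260). Other cell cycle genes gave 1 call (Gins4) without WT replicates 3 and 6 and 1 (Prc1) within arrays of low level, and 0 to 1 with 1 array left out. Over all probe sets the calls were 278 with dim probe sets left out, 64 with the replicate block, 61 at an adjusted p below 0.01, 2 and 24 within arrays of high and low Y-linked level, and 106 to 227 with 1 array left out, beside 185. Within arrays of high level 24 of 42 members had positive changes; among the 20 members given in full, those of Ccnd1 (-0.0163), Mcm2 (-0.0404), Mki67 (-0.0801), Top2a (-0.0655) and Ube2c (-0.0613) turned negative, and that of Ccnd1 ran from -0.00519 to 0.0613 with 1 array left out. The cause of these shifts was not tested, and some of these settings also held fewer arrays or probe sets. Same-numbered arrays did not deviate together (correlations of -0.221 to 0.155, and 0 of 12 arrays were closest to their own number). No pairing by replicate number was thus seen, but this measure cannot exclude a shared litter or batch. Under the block Aurkb had a limma adjusted p of 0.146. Members near the floor of the arrays, 5 of 42 at or below the median probe set, limit what can be seen.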
